A study of Ovis aries with 32 samples.

Results

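The nuclear genes for subunits of the mitochondrial oxidative phosphorylation machinery were followed across 4 fat depots of female sheep (Ovis aries) with and without excess testosterone before birth. They were taken by their symbols: names beginning NDUFA, NDUFB, NDUFC, NDUFS or NDUFV plus a number, the SDH genes A to D, and names beginning UQCR, COX4 to COX8 or ATP5. This pattern found 61 of the 28524 genes in the count table, 35 of complex I, 4 of complex II, 1 of complex III, 3 of complex IV and 18 of complex V. The set is uneven: complex III is represented by UQCRH alone and complex IV by COX5A, NDUFA4 and NDUFA4L2, and the other nuclear subunits of these complexes, the tissue isoforms of COX4, COX6, COX7 and COX8 and the mitochondrially encoded subunits were not analysed here. Of the 61 members, 59 had enough reads to be tested in every comparison.

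Oxidative phosphorylation is the last stage of fuel burning in the mitochondrion. Complexes I and II pass electrons from NADH and succinate to ubiquinone, complex III passes them on to cytochrome c, complex IV hands them to oxygen, and complex V, the ATP synthase, uses the resulting proton gradient to make ATP. White fat holds few mitochondria beside heart muscle or brown fat, in which the respiratory chain is among the most abundant sets of proteins, and in brown fat the uncoupling protein UCP1 turns the gradient into heat.

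Each of 8 ewes gave 4 depots, so that the 32 libraries formed 8 groups of 4: mesenteric (visceral), sternal (subcutaneous), perirenal and epicardial fat of 4 controls and of 4 sheep whose dams had intramuscular injections of testosterone propionate, 100 mg (1.2 mg/kg) dissolved in corn oil (2 ml) and given 2 times a week between days 30 and 90 of gestation, an exposure used as a model of polycystic ovary syndrome. All 8 sheep, controls included, had been ovariectomized as adults, once their second breeding season was over, and given a small estradiol implant. They were then brought to an artificial follicular phase by progesterone implants for 14 days and 4 estradiol implants of 30 mm for the last 18 hours, so the controls too were under steroid replacement. Both groups shared housing and a maintenance diet, and no dam gave more than 1 daughter to a group. The 3′ end of each messenger RNA was sequenced, which gives about 1 read per transcript whatever its length, so levels are compared between genes without a length correction. Values of the 4 control libraries of a depot are listed for animals 98, 131, 132, 201 in this order, and those of the testosterone libraries for animals 48, 185, 233, 255.

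Total counts per library ran from 784135, for subcutaneous fat of sheep 48, to 8267824. Several libraries stood apart. In epicardial fat, the summed level of 14 cardiac muscle genes was 20673, 4178, 139 and 663 counts per 1e6 counts (CPM, scaled between libraries by the TMM method) in the control sheep and 30537, 443, 4324 and 129 CPM in the testosterone sheep, against 42.3 to 208 CPM in the 24 libraries of the other depots. The heart muscle genes TNNT2, MYL7, NPPA and NPPB had no count in any library of those 3 depots, and all 14 had counts in epicardial fat. The epicardial libraries of sheep 98, 131, 48 and 233 are called heart-rich here. ARGLU1, the gene of a splicing coactivator, reached 19698 CPM in the visceral fat of testosterone sheep 255 and 26343 CPM in the subcutaneous fat of sheep 48, where the other 30 libraries held 236 to 4990 CPM. HOXC6, a homeobox gene that marks position along the body axis, was at 0 to 2.21 CPM in 7 of the 8 epicardial libraries. It was at 94.6 CPM in the library labelled epicardial of testosterone sheep 255, within the 74.4 to 113 CPM of visceral fat. By this gene the library went against its label. Its summed brown adipocyte markers went with the label, at 487 CPM, within the 355 to 559.5 CPM of epicardial fat and above the 129 to 394 CPM of the other depots. Other marker sums were mixed. Its adipocyte sum, 30116 CPM, was above the 9761 to 24384 CPM of the other epicardial libraries. Its fibroblast and progenitor sum, 2917 CPM, was below their 3582 to 5589 CPM, and its endothelial and macrophage sums were above theirs. Its T and NK cell, mesothelial and smooth muscle sums lay within their ranges. Adipocyte genes were present in every depot, with 8 of 8 listed markers counted and a summed level of 9761 to 54551 CPM.

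The members summed to 7612, 6293, 8692 and 6958 CPM in the 4 control subcutaneous libraries and to 11352, 10724, 11701 and 9788 CPM in the 4 control perirenal ones. Every perirenal library thus lay above every subcutaneous one. The control visceral libraries held 7490.0, 9472, 11852 and 8964 CPM and overlapped both depots, and the epicardial ones spanned the widest range, 18529, 12403, 9559 and 7988 CPM. As mean ± SD (n = 4), the order in control sheep was epicardial (12119.7 ± 4647 CPM), perirenal (10891 ± 839), visceral (9445 ± 1812) and subcutaneous fat (7389 ± 1022). Neighbours in this order overlapped. In testosterone sheep the sums were 9940.0, 8419, 16419.9 and 8104 CPM in perirenal, 5564, 7715, 10068 and 6817 CPM in subcutaneous, 7777, 9829, 8327 and 4389 CPM in visceral and 25648, 7305, 10192 and 8062 CPM in epicardial fat. The lowest sum of all 32 libraries, 4389 CPM, was in the ARGLU1-rich visceral library of sheep 255, and the highest, 25648 CPM, in the heart-rich epicardial library of sheep 48. As a share of all counts the members made up 0.387% to 2.44% of a library, with a median of 0.884%. In these bulk samples, fewer cells of a type and less RNA per cell cannot be told apart.

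**Figure D1:**
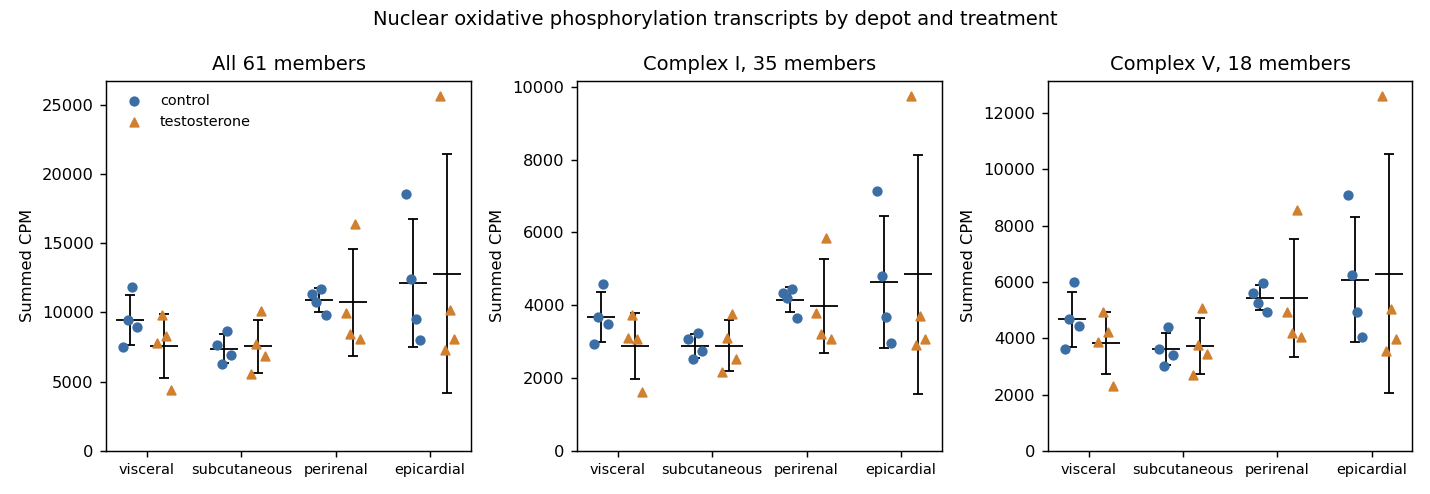
Summed CPM of all 61 members (left), of complex I (middle) and of complex V (right) in each library; points are single sheep, the bar is the mean and the whiskers the SD of 4 libraries. Every control perirenal library lies above every control subcutaneous library, and the epicardial libraries of sheep 98 (18529 CPM) and 48 (25648 CPM) lie far above the rest of their depot.

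Within an animal, the perirenal sum divided by the same sheep's subcutaneous sum was above 1 in 4 of 4 control sheep (1.35 to 1.70) and in 4 of 4 testosterone sheep (1.09 to 1.79). The epicardial sum exceeded the subcutaneous sum in 4 of 4 control sheep (1.10 to 2.43) and 3 of 4 testosterone sheep (0.947 to 4.61). The visceral sum did so in 3 of 4 (0.984 to 1.51) and 2 of 4 (0.644 to 1.40). Perirenal above subcutaneous fat was therefore the order seen in all 8 animals.

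Complex V gave 47.7% to 52.2% of the summed CPM in every library and complex I 35.6% to 40.2%, whereas complex II gave 3.70% to 5.95%, complex IV 2.49% to 5.85% and UQCRH, the hinge protein of complex III that binds cytochrome c1, 2.02% to 5.04%. The most abundant members by mean over the 32 libraries were ATP5MC3 (814.5 CPM), which encodes subunit c of the rotor ring, ATP5MG (702 CPM), subunit g of the membrane part, ATP5F1E (557 CPM), the epsilon subunit of the central stalk, and ATP5ME (457 CPM), subunit e. Subunits that meet in 1 enzyme differed widely in counted level. The annotation behind the counts is not stated, so how fully the reads of each gene were assigned is not known. The delta subunit ATP5F1D averaged 23.0 CPM and the beta subunit ATP5F1B 301 CPM. In complex II the membrane anchor SDHD averaged 8.88 CPM, against 173 CPM for the flavoprotein SDHA, 119 CPM for the iron-sulfur protein SDHB and 191 CPM for the other anchor SDHC. Among the iron-sulfur and flavin core subunits of complex I, NDUFV1 averaged 21.6 CPM and NDUFV2 293 CPM. The genes ATP5MC1, ATP5MC2 and ATP5MC3 encode the same mature subunit c, and nearly all reads lay on ATP5MC3. ATP5MC2 averaged 4.90 CPM, and the entries ATP5MC1 and ATP5MC1_1 held 3 and 8 reads in all 32 libraries and are the pair that could not be tested. Reads of near-identical copies such as these may have been assigned to the wrong one, so levels of single subunit c genes are uncertain.

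The first comparison asked how the depots of control sheep differ in these genes, each depot being set against the mean of the other 3 with the sheep as a block. Subcutaneous fat had the lowest levels. In edgeR's quasi-likelihood test at a false discovery rate under 0.05, 22 of 59 members were lower and 0 higher there, where 23.0% of all 13369 genes tested were called and 11.6% were lower. The median log2 fold change of the members was -0.47, against 0.01 over all genes tested, and 51 of 59 were below 0. DESeq2 called 30 members in this comparison and 3214 of all genes, where edgeR called 3075. Adjusted p-values in the text are from edgeR unless DESeq2 is named. The lower members came from complex I (15 of 35), complex II (1 of 4), complex III (UQCRH) and complex V (5 of 16), and 0 of 3 from complex IV.

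Several of the core subunits of complex I carry its redox centres. NDUFS1, the large iron-sulfur subunit of the NADH-oxidising arm, stood at 30.9, 41.3, 26.5 and 32.0 CPM in subcutaneous and 48.5, 49.8, 46.3 and 43.9 CPM in visceral fat, at 40.5, 52.2, 54.1 and 28.7 CPM in perirenal and 163, 66.5, 52.7 and 57.6 CPM in epicardial fat. The subcutaneous libraries were below all visceral and epicardial ones and overlapped the perirenal ones. Its log2 fold change was -0.75 (SE 0.24, adjusted p = 0.0358). NDUFS3, NDUFS8 and NDUFV2 were lower too, with log2 fold changes of -0.65, -0.61 and -0.42. Of the 28 accessory subunits, which surround the core and are needed for its assembly and stability, 10 were lower. NDUFC1, a small subunit of the membrane arm, had the largest difference of the members that passed: it was at 133, 117, 160.0 and 122 CPM in subcutaneous fat, below all 12 other control libraries, which began at 173 CPM, and its log2 fold change was -0.91 (SE 0.23, adjusted p = 0.0114). NDUFA13, also known as GRIM-19, was at 129.7, 111, 119 and 98.8 CPM here and at 239, 203, 204 and 239 CPM in perirenal fat, without overlap, and its log2 fold change in subcutaneous fat was -0.76 (SE 0.16, adjusted p = 0.00258). The other lower accessory subunits were NDUFA1, NDUFA5, NDUFA6, NDUFB2, NDUFB6, NDUFB8, NDUFB10 and NDUFB11, between -0.75 for NDUFA5 and -0.37 for NDUFB2.

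SDHA, which oxidises succinate, stood at 149, 125, 162 and 97.1 CPM in subcutaneous and 216, 191, 169 and 203 CPM in perirenal fat, without overlap. Its log2 fold change in subcutaneous fat was -0.58 (SE 0.19, adjusted p = 0.0345), and the other 3 genes of complex II did not pass. UQCRH was at 189, 132, 227 and 182 CPM in subcutaneous fat. It was at 325, 361, 368 and 318 CPM in perirenal and 231, 236, 275 and 274 CPM in visceral fat. These 3 depots did not overlap for UQCRH, and its log2 fold change in subcutaneous fat was -0.71 (SE 0.20, adjusted p = 0.0205). COX5A, a complex IV subunit on the matrix side, did not pass (-0.51, SE 0.20, adjusted p = 0.0826), although its subcutaneous values of 193, 184, 196 and 171 CPM lay below every visceral and perirenal value (201 to 260.0 and 219 to 290.5 CPM). NDUFA4 was assigned first to complex I and later to complex IV. It did not pass either (-0.69, SE 0.30, adjusted p = 0.119).

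In complex V the lower members were the epsilon subunit ATP5F1E, the peripheral stalk subunits ATP5PF and ATP5PD, subunit g (ATP5MG) and ATP5IF1, the small protein that blocks the enzyme from running backwards and burning ATP. ATP5F1E stood at 375, 317, 406 and 369 CPM in subcutaneous fat and 724, 627, 671 and 613 CPM in perirenal fat, again without overlap, and its log2 fold change in subcutaneous fat was -0.83 (SE 0.18, adjusted p = 0.0039). ATP5IF1 was at 188, 166, 190.1 and 153 CPM in subcutaneous fat, 377, 335, 343 and 290.1 CPM in perirenal fat, 199.8, 266, 366 and 263 CPM in visceral fat and 382, 401, 225 and 156 CPM in epicardial fat, so that all subcutaneous libraries lay below all visceral and perirenal ones but not below the epicardial library of sheep 201. Its log2 fold change in subcutaneous fat was -0.77 (SE 0.19, adjusted p = 0.009). The catalytic beta subunit ATP5F1B, at 252, 228, 274 and 240.2 CPM, did not pass there (-0.36, SE 0.15, adjusted p = 0.0961).

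The heart-rich libraries changed the subcutaneous count little. Without them, 20 members were lower and 0 higher (median -0.31; 21.8% of all genes called), and 17 of the 22 were among them. With no epicardial library in the fit, an alternative added after the data were seen, 28 were lower and 2 higher (ATP5F1D, 0.48, and NDUFA10, 0.52), where 26.8% of all genes were called. Leaving out sheep 131 gave 4 called members, with 1806 of all genes called against 3075 with all sheep. Over the 4 fits that left out 1 sheep the median stayed between -0.54 and -0.38. Markers of other cells moved with this depot. Of the T and NK cell markers 6 of 6 tested were lower in subcutaneous fat (median -1.93), of the smooth muscle markers 5 of 6, of the macrophage markers 3 of 5, and of the adipocyte markers 2 of 8 were higher and 1 lower. Cytosolic ribosomal protein genes were lower as well, 40 of 79. Their part in the result was not tested.

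Perirenal fat had 4 higher members and 1 lower in control sheep, 8.47% of the 59 against 13.8% of all genes tested (7.73% higher and 6.04% lower), with a median of 0.13. The higher ones were ATP5MG (0.55, SE 0.14, adjusted p = 0.0177), NDUFA13 (0.52, SE 0.15, adjusted p = 0.0262) and 2 accessory subunits of complex I, NDUFA6 (0.49, SE 0.13, adjusted p = 0.0205) and NDUFB2 (0.40, SE 0.11, adjusted p = 0.0262). ATP5MG stood at 945, 864, 1009 and 932 CPM in perirenal fat and at 545, 723, 919 and 695 CPM in visceral, 502, 418, 676 and 495 CPM in subcutaneous and 837, 861, 671 and 481 CPM in epicardial fat. The perirenal values lay above all subcutaneous and epicardial ones, the latter by a narrow margin, and only the visceral library of sheep 132 reached into their range. The lower one, the complex II anchor SDHD, was at 4.43, 6.53, 7.31 and 4.02 CPM in perirenal fat, below all subcutaneous and epicardial values (7.91 to 10.3 and 7.69 to 18.3 CPM), and 1 library reached the visceral range of 7.11 to 9.19 CPM. Its log2 fold change was -0.72 (SE 0.24, adjusted p = 0.0492). Without the perirenal library of sheep 98, 0 members passed in edgeR's test (12 at an unadjusted p under 0.05; 3.41% of all genes called), and the median was 0.18. The member sum of that library, 11352 CPM, lay within the 9788 to 11701 CPM of the other control perirenal libraries. Leaving out any 1 sheep gave 1 to 3 called members and 656 to 1584 of all genes, against 1841 with all sheep.

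The perirenal count differed more with the set of epicardial libraries it was compared with. Without the heart-rich libraries of sheep 98 and 131, 22 of 59 members were higher in perirenal fat and 1 (SDHD) lower, where 14.5% of all 13982 genes tested were called and 8.40% were higher. The median was 0.28, and the 5 members called with all libraries were among the 23. The higher ones included UQCRH (0.76, SE 0.12, adjusted p = 0.000567), ATP5MD, the membrane subunit also called DAPIT (0.76, SE 0.17, adjusted p = 0.00788), ATP5IF1 (0.72, SE 0.12, adjusted p = 0.00121) and NDUFA1, a subunit of the membrane arm of complex I (0.71, SE 0.13, adjusted p = 0.00235). With no epicardial library in the fit, 19 were higher and 0 lower, where 12.7% of all genes were called and 7.20% were higher (median 0.30). Of the 5 members called with all libraries 3 were among those 19, and SDHD no longer passed (-0.61, SE 0.21, adjusted p = 0.0729). NDUFS1 did not pass in either fit (-0.04, SE 0.15, adjusted p = 0.889, and 0.14, SE 0.15, adjusted p = 0.572). Cytosolic ribosomal protein genes were higher in perirenal fat beside these members, 63 of 79 with all libraries, with sums of 104921 to 127177 CPM against 51327 to 75637 CPM in subcutaneous fat. Smooth muscle markers (4 of 6) were higher too. Their part in the perirenal result was not tested.

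**Figure D2:**
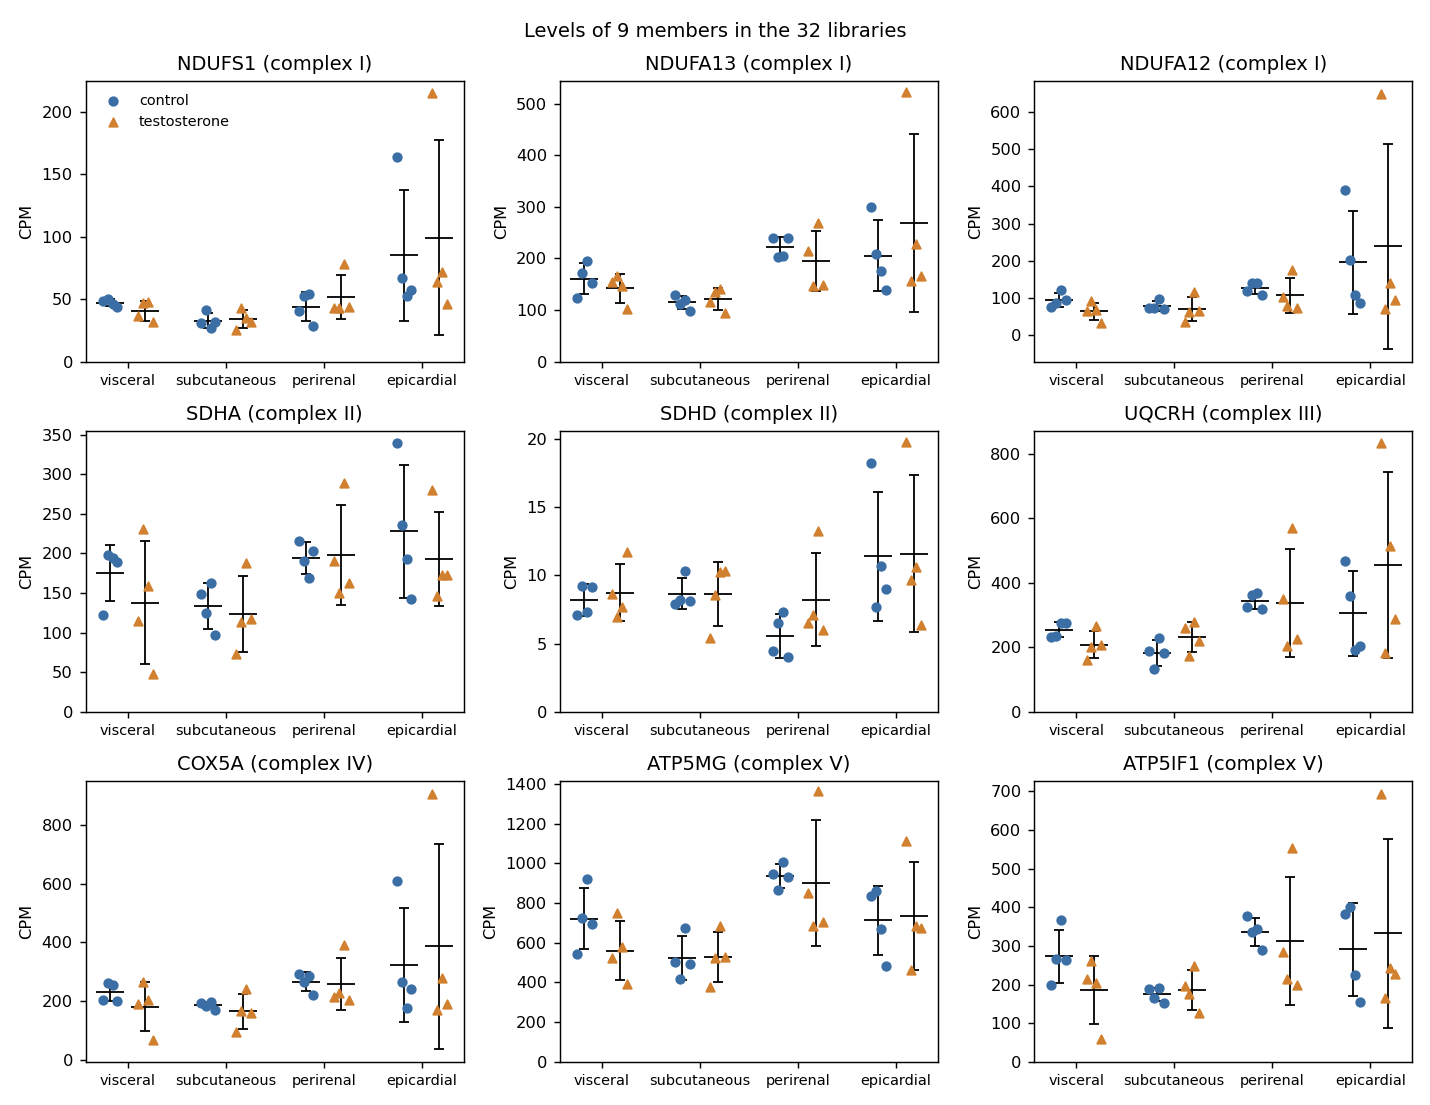
CPM of 9 members in each library by depot and treatment; points are single sheep, the bar is the mean and the whiskers the SD of 4 libraries. Control perirenal libraries lie above control subcutaneous ones for NDUFA13, UQCRH, COX5A, ATP5MG and ATP5IF1, SDHD runs the other way, and single epicardial libraries stand high for NDUFS1, NDUFA12 and COX5A.

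Epicardial fat of control sheep had 19 higher members and 0 lower, where 27.8% of all genes tested were called and 15.3% were higher. The median log2 fold change was 0.43 and 53 of 59 members were above 0. The higher members were 11 of complex I, 5 of them core subunits, and 8 of complex V, among them 4 of the 5 head and central stalk subunits; 0 came from complexes II, III and IV. NDUFS1 (0.97, SE 0.22, adjusted p = 0.00419) and NDUFA12, an accessory subunit of the peripheral arm (0.89, SE 0.29, adjusted p = 0.0372), had the largest differences. NDUFS8, an iron-sulfur core subunit, followed (0.84, SE 0.13, adjusted p = 0.000131) with NDUFB5 of the membrane arm (0.76, SE 0.25, adjusted p = 0.0348). ATP5F1B was at 538, 331, 351 and 284 CPM, with a log2 fold change of 0.42 (SE 0.15, adjusted p = 0.0424). The other higher members of complex V were the alpha, gamma and epsilon subunits ATP5F1A, ATP5F1C and ATP5F1E, the peripheral stalk subunits ATP5PB and ATP5PF, subunit c (ATP5MC3) and subunit f (ATP5MF), between 0.49 for ATP5F1A and 0.74 for ATP5PB. Beside them, 4 of 4 cardiac muscle genes with enough reads for the test and 6 of 6 T and NK cell markers were higher in epicardial fat, and 4 of 8 adipocyte and 5 of 6 endothelial markers lower.

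The highest levels stood in the heart-rich libraries. NDUFA12 stood at 389, 201, 108 and 86.4 CPM in the 4 control epicardial libraries, whose cardiac muscle sums were 20673, 4178, 139 and 663 CPM, and at 118, 139.5, 141 and 109 CPM in perirenal fat. The libraries of sheep 132 and 201 were below all perirenal values, and those of sheep 98 and 131 above them. Without the heart-rich libraries, 1 member was higher, NDUFS8 (0.70, SE 0.17, adjusted p = 0.0106), and 1 lower, NDUFS4, an accessory subunit (-0.71, SE 0.18, adjusted p = 0.0124), where 14.4% of all genes were called. The median was then -0.05, and NDUFA12 (-0.12, SE 0.15, adjusted p = 0.642) and COX5A (-0.06, SE 0.17, adjusted p = 0.859) did not pass. NDUFS8 was the 1 member of the 19 that was called in both fits. It stood at 145, 91.9, 99.2 and 86.4 CPM in epicardial fat, and its lowest value there exceeded the highest of the 12 other control libraries, 74.6 CPM. With sheep 98 left out from all depots 3 members and 2578 of all genes were called, with sheep 131 left out 8 and 2729, and with sheep 132 left out 29 and 2939, against 19 and 3713 with all sheep.

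**Figure D3:**
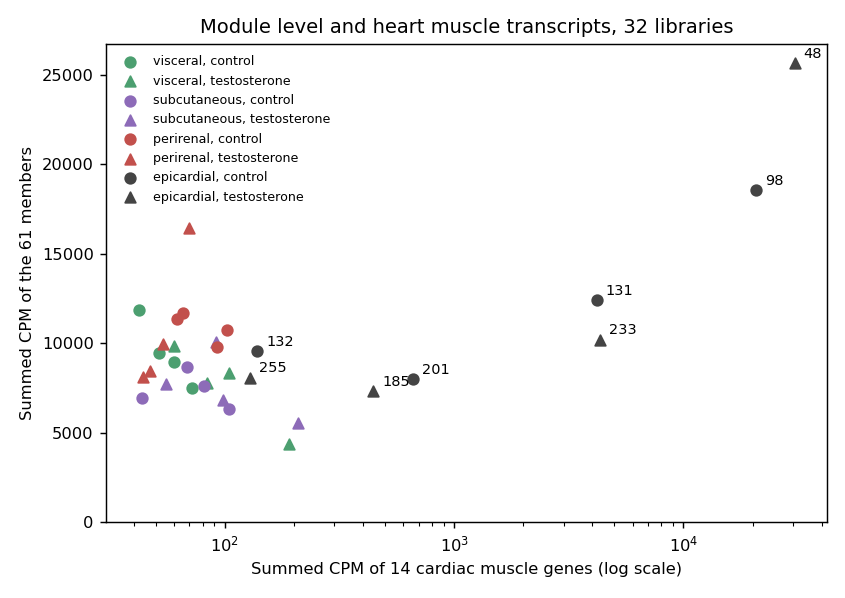
Summed CPM of the 61 members against the summed CPM of 14 cardiac muscle genes (log scale) in the 32 libraries, colored by depot, with circles for control and triangles for testosterone sheep; epicardial libraries are marked with their sheep number. The epicardial libraries of sheep 98 and 48, with 20673 and 30537 CPM of cardiac muscle genes, hold 18529 and 25648 CPM of the members, whereas those of sheep 132, 201, 185 and 255, with 129 to 663 CPM, hold 7305 to 9559 CPM.

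The subunits differed in how much higher they were in the most heart-rich library. Each level there was divided by the mean of the pair with the lowest cardiac muscle sums, within each group of sheep: 98 against 132 and 201 in controls, 48 against 185 and 255 in testosterone sheep. This measure was chosen after the values were seen. Over the 59 members with enough reads the median ratio was 2.10 in controls and 3.16 in testosterone sheep, and 58 were above 1 in each. The order of members was alike in the 2 groups of sheep, which share no library (Spearman's rho 0.76 across 59 genes, which are not independent). Against sheep 185 alone, leaving aside the library labelled epicardial of sheep 255, the testosterone median was 3.29 and rho again 0.76. The 7 genes in both top 10s were NDUFA12 (4.01 and 7.83), NDUFA4 (4.74 and 6.29), NDUFB1 (3.55 and 6.58), NDUFB5 (3.32 and 5.50), NDUFB4 (3.09 and 4.81), NDUFC1 (3.08 and 4.77) and COX5A (2.90 and 5.04), each given for controls and then testosterone sheep. At the other end were ATP5F1D (1.33 and 1.54), ATP5MG (1.45 and 1.96), NDUFB7 (1.23 and 1.98) and NDUFA2 (1.26 and 1.96). The 1 member below 1 in both was NDUFA4L2 (0.539 and 0.790), the hypoxia-induced paralog of NDUFA4. NDUFA4 itself stood at 403, 149, 89.0 and 81.2 CPM in control epicardial libraries and at 583, 96.4, 174 and 89.0 CPM in those of testosterone sheep. NDUFA4L2 stood at 9.80, 13.7, 20.3 and 16.1 CPM and 12.0, 16.5, 10.1 and 13.9 CPM in the same libraries, so that the library of sheep 98 was the highest of its group for NDUFA4 and the lowest for NDUFA4L2. These ratios compare single libraries and have no replicate check. They were computed for the members alone, so no share, median or rho over all genes stands beside them.

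In control sheep, visceral fat gave the fewest calls, 1 lower member and 0 higher, against 5.73% of all genes called and 2.24% lower. The lower member was ATP5F1D, the delta subunit of the ATP synthase rotor. It was at 12.0, 15.3, 23.4 and 11.7 CPM in visceral fat and at 25.6, 24.1, 28.8 and 22.1 CPM in subcutaneous fat, with overlap from sheep 132, and its log2 fold change was -0.67 (SE 0.19, adjusted p = 0.045). It did not pass with sheep 98, 131 or 201 left out, without the perirenal library of sheep 98 (-0.68, SE 0.20, adjusted p = 0.055) or with no epicardial library (-0.59, SE 0.17, adjusted p = 0.0831). The median of the members was -0.09. Without the heart-rich libraries NDUFS4 was higher (0.44, SE 0.12, adjusted p = 0.0497) and ATP5F1D lower (-0.68, SE 0.17, adjusted p = 0.0261), where 5.14% of all genes were called. SDHA in the visceral library of sheep 98 (123 CPM) was well below the other 3 (189 to 197 CPM).

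**Figure D4:**
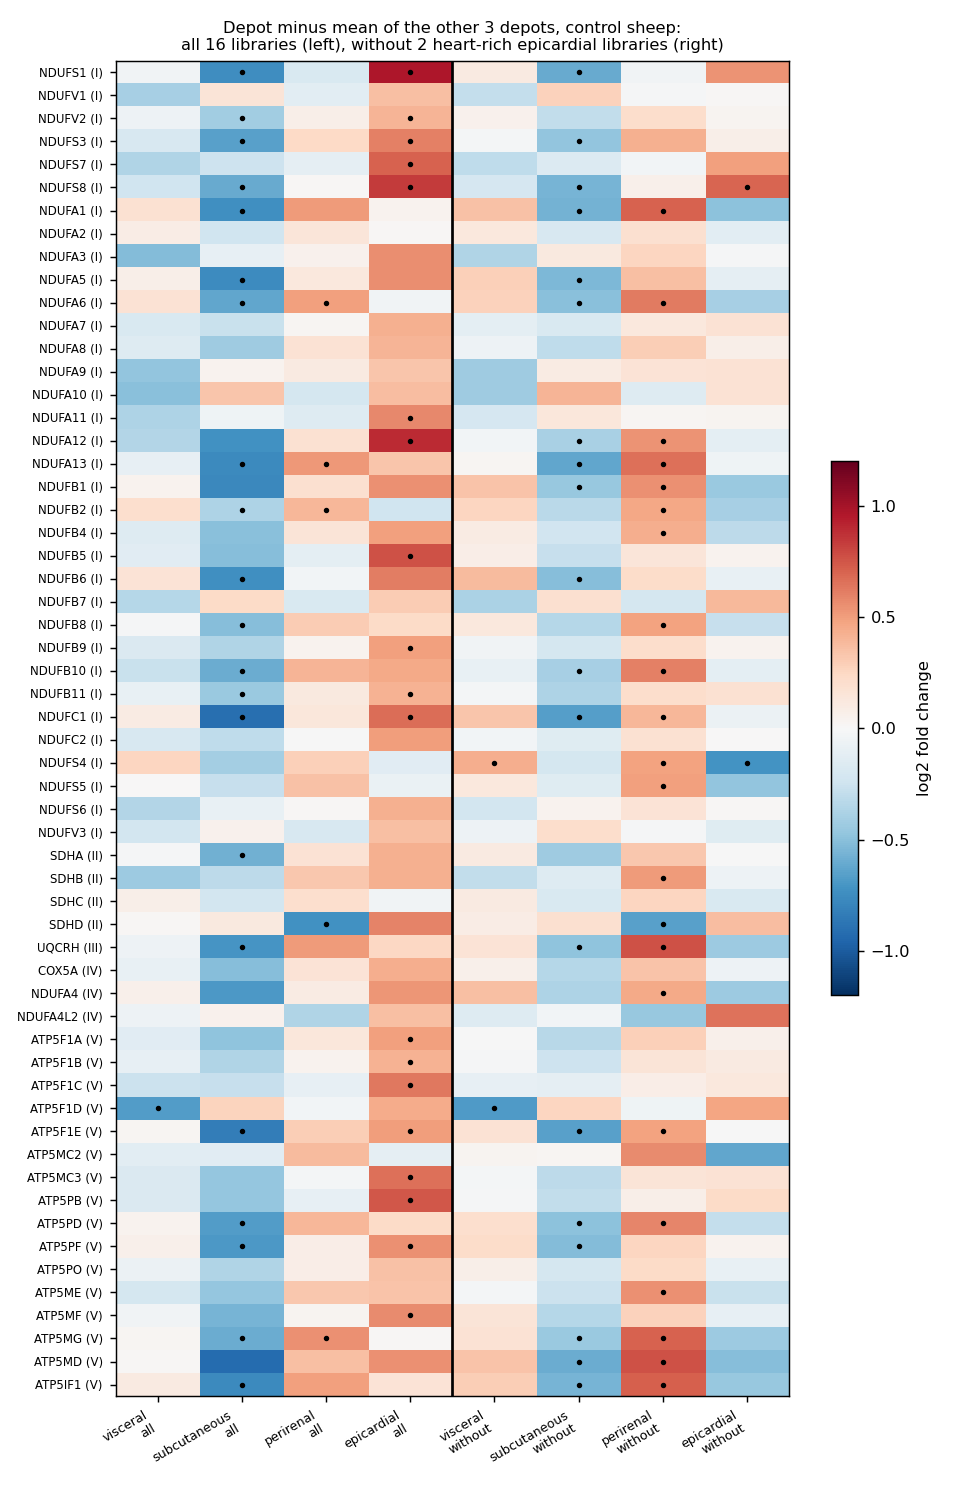
Log2 fold change of 58 of the 59 tested members in each depot against the mean of the other 3 in control sheep, with all 16 libraries (left of the line) and without the heart-rich epicardial libraries of sheep 98 and 131 (right); dots mark members with an edgeR adjusted p under 0.05 and the complex is in brackets. Subcutaneous fat is low on both sides of the line (22 and 20 of all 59 members called), and the counts were 19, then 2 of 59 in epicardial fat and 5, then 23 of 59 in perirenal fat.

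In testosterone sheep the same depot comparisons gave few calls. By edgeR, 1 member passed in epicardial fat, NDUFS1 (1.10, SE 0.30, adjusted p = 0.0471; 4.46% of all genes called). In the others 0 passed: visceral (0.0895% of all 13411 genes called), subcutaneous (2.54%) and perirenal fat (0.559%). At an unadjusted p under 0.05 there were 17 members in epicardial, 7 in visceral, 4 in subcutaneous and 2 in perirenal fat, where 19.7%, 8.90%, 16.3% and 20.6% of all genes passed that limit. DESeq2 called 4 members in epicardial fat, 1 in visceral, 1 in subcutaneous and 0 in perirenal fat. NDUFS1 did not pass with sheep 48, 185 or 233 left out. It stood at 215, 63.5, 71.7 and 46.5 CPM in epicardial fat and 25.6, 43.1, 35.1 and 31.7 CPM in subcutaneous fat of these sheep, without overlap. Without the heart-rich libraries 0 members passed in epicardial fat by edgeR (0.398% of all genes called), the count at an unadjusted p under 0.05 was 0, and the median was 0.10 in place of 0.48. Without the ARGLU1-rich pair of libraries and the one labelled epicardial of sheep 255, 1 member, NDUFS1, passed in epicardial fat (19.4% of all genes called), 0 passed in the others, and the medians were 0.41 in epicardial, -0.37 in visceral, -0.18 in subcutaneous and 0.13 in perirenal fat.

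The signs in control sheep were set beside those in the testosterone sheep, whose libraries are separate. Of the 22 members lower in subcutaneous fat of controls, 22 had a log2 fold change below 0 in testosterone sheep. So did 1 of 1 in visceral fat, and 5 of 5 in perirenal and 19 of 19 in epicardial fat kept their sign. Of all genes called in controls, 96.1%, 83.3%, 94.1% and 95.3% kept their sign in subcutaneous, visceral, perirenal and epicardial fat. Over all 59 members the signs matched for 56 in subcutaneous, 53 in epicardial, 46 in perirenal and 38 in visceral fat (94.9%, 89.8%, 78.0% and 64.4%, against 77.7%, 76.1%, 72.9% and 57.9% of all 13093 genes tested in both). Without the heart-rich libraries fewer epicardial signs matched, 12 of the 19 and 29 of all 59. There 26 members were above 0 in controls and 40 in testosterone sheep. These fits kept the epicardial libraries of control sheep 132 and 201 and of testosterone sheep 185 and 255. The library of sheep 255 is the one with a HOXC6 level like visceral fat. The match over all genes was not computed without the heart-rich libraries, so these counts have no background beside them. The matches over the 59 were then 52 in subcutaneous, 54 in perirenal and 29 in visceral fat, and 22 of the 22 subcutaneous members kept their sign. The members' medians in testosterone sheep were -0.30 in subcutaneous, 0.48 in epicardial, 0.24 in perirenal and -0.41 in visceral fat, where 58 of 59 members were below 0. These visceral values include the ARGLU1-rich library of sheep 255. Without the ARGLU1-rich pair and the library labelled epicardial of sheep 255, 57 of 59 members were below 0 in visceral fat. The median over all genes tested was then -0.02. Perirenal UQCRH of testosterone sheep was at 349, 204, 569 and 226 CPM and perirenal ATP5IF1 at 284, 215, 555 and 199 CPM. Both were highest in sheep 233, whose perirenal library had the highest sum of its group (16420 CPM against 8104 to 9940 CPM).

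The second comparison asked whether excess testosterone before birth changed these genes in the adult depots. In edgeR's test 0 of 59 members passed in each of the 4 depots, as did 0 of all genes tested (0%). DESeq2 called 0 members in each and, among all genes, 32 in epicardial, 29 in visceral, 9 in perirenal and 5 in subcutaneous fat. The groups of sheep were small, 4 against 4, and a p that misses the threshold does not show that levels were alike. At an unadjusted p under 0.05 there were 4 members in visceral fat, where 9.42% of all genes passed that limit, and 0 in subcutaneous, perirenal and epicardial fat (5.11%, 5.37% and 5.65% of all genes). Summed over the 4 depots of each sheep, 0 members passed by edgeR or DESeq2, 0 had an unadjusted p under 0.05 (6.80% of all genes), and 0.00654% of all 15301 genes tested were called. The median log2 fold changes of the members were -0.28 in visceral fat, 0.00 in subcutaneous fat, -0.01 in perirenal fat and 0.07 in epicardial fat, and -0.04 for the summed depots. The median SE of a member was 0.43 in epicardial fat, 0.28 in visceral fat, 0.23 in subcutaneous fat and 0.22 in perirenal fat.

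The most negative values were in visceral fat. ATP5MD stood at 60.7, 76.8, 150.2 and 87.5 CPM in control and 43.9, 36.0, 57.5 and 26.9 CPM in testosterone sheep, without overlap between the groups. Its log2 fold change was -1.19 (95% confidence interval -1.89 to -0.49, unadjusted p = 0.00331, adjusted p = 0.521 by edgeR) and did not pass. NDUFB6, a membrane arm subunit, was at 79.3, 84.0, 116 and 99.4 and 41.9, 49.1, 84.7 and 25.6 CPM (-0.91, unadjusted p = 0.0156 by edgeR), and NDUFB1 at 204, 239.5, 386 and 214 and 159, 173, 139.5 and 48.2 CPM (-1.02, unadjusted p = 0.0177 by edgeR). Groups overlapped for NDUFB6 and did not for NDUFB1, and neither passed. The ARGLU1-rich library of sheep 255 was the lowest for all 3 of them. Without it 0 members passed, 3 had an unadjusted p under 0.05, and the median of the 59 was -0.10 in place of -0.28. Over the left-out sheep that median ranged from this -0.10 to -0.40, the latter without sheep 185. The summed adipocyte markers moved with the group, at 32748 to 54551 CPM in control and 10269 to 32732 CPM in testosterone visceral libraries, and their part was not tested.

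The other depots gave smaller values, none of which passed. In subcutaneous fat the smallest unadjusted p belonged to UQCRH (0.36, 95% confidence interval -0.13 to 0.85), which stood at 189, 132, 227 and 182 CPM in control and 259, 172, 278 and 219 CPM in testosterone sheep. In perirenal fat it belonged to NDUFB10 (-0.27, -0.60 to 0.06), and in epicardial fat again to UQCRH (0.58, -0.57 to 1.73). The epicardial median of 0.07 had no stable sign. It was -0.52 without sheep 48 and 0.37 without sheep 98, the ends of the range over the left-out sheep, and -0.20 without the heart-rich libraries. NDUFA6 and NDUFA13 in epicardial fat, at 0.39 and 0.39, were at -0.06 and -0.16 without sheep 48. A joint test of whether the effect of testosterone differed between depots called 0 members by edgeR and by DESeq2, 0 at an unadjusted p under 0.05 (4.61% of all genes) and 0.00703% of all 14225 genes. The member with the smallest p in it was ATP5MD (adjusted p = 0.994 by edgeR).

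**Figure D5:**
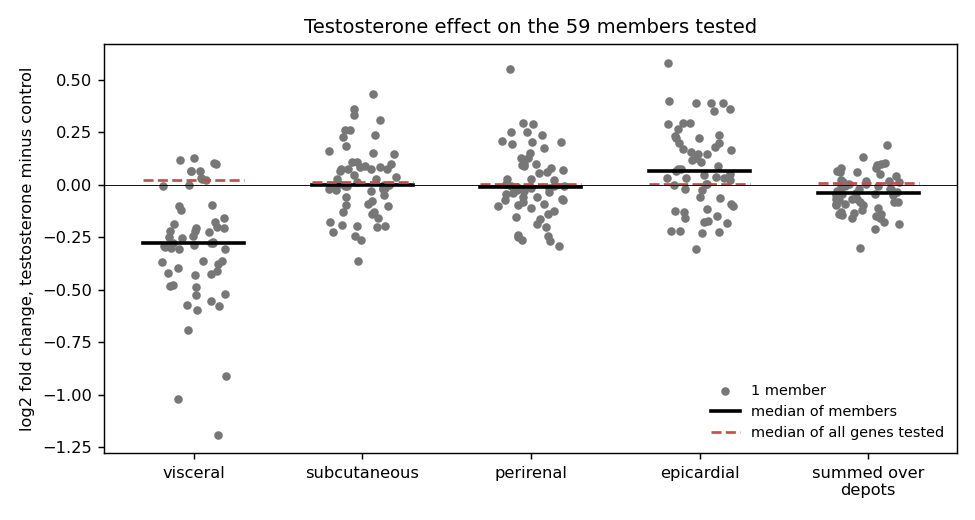
Log2 fold change, testosterone minus control, of each of the 59 tested members (points, spread sideways for visibility) in the 4 depots and in counts summed over depots; the solid line is the members' median and the dashed line the median of all genes tested. Visceral fat is centred on -0.28 and the other medians lie between -0.04 and 0.07, and no point passed the test.

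Single members left the common proportions. UQCRH made up 2.82% of the members' summed CPM in the median library and 5.04% in the epicardial library of testosterone sheep 233, where it stood at 514 CPM. The oligomycin-sensitivity subunit ATP5PO, part of the peripheral stalk, made up 2.70% in the median and 5.35% in the ARGLU1-rich visceral library of sheep 255. There it held 235 CPM, close to the 253 to 294 CPM of the other 3 libraries of its group, while ATP5IF1 held 58.2 CPM there against 205 to 261 CPM. NDUFV3, an accessory subunit of the NADH-oxidising arm, made up 0.415% in the median and 1.26% in the other ARGLU1-rich library, the subcutaneous one of sheep 48, at 70.1 CPM against 32.4 to 42.8 CPM in the rest of its group. NDUFA4L2 ranged from 7.82 to 20.3 CPM over all 32 libraries, a narrower span than NDUFA4, at 27.4 to 583 CPM.

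Other genes around the respiratory chain were counted in the same fits of control sheep, in which the share of all genes called was 27.8% in epicardial, 23.0% in subcutaneous and 13.8% in perirenal fat. Of 37 assembly factors, 5 were lower and 3 higher in subcutaneous fat (21.6%, median -0.21), among them PET117, a complex IV assembly factor, higher (0.89, SE 0.17, adjusted p = 0.00172), and TMEM242, which helps to build complex I and the ATP synthase, lower (-0.77, SE 0.18, adjusted p = 0.00516). Of 25 electron carriers and other respiratory chain genes, 6 were lower and 1 higher in subcutaneous fat (28.0%). They included GPD2, which feeds electrons from glycerol phosphate to ubiquinone, lower in subcutaneous (-0.73, SE 0.14, adjusted p = 0.0018) and higher in perirenal fat (1.24, SE 0.13, adjusted p = 1.70e-05), and NDUFAB1, the acyl carrier protein, which sits in complex I under a symbol the pattern does not match (-1.06, SE 0.21, adjusted p = 0.00257 in subcutaneous fat). Of 21 genes of the tricarboxylic acid cycle and pyruvate entry, 3 were lower in subcutaneous fat (14.3%), SUCLG1, IDH3A and PDHB. In epicardial fat 9 were higher and 1 lower (47.6%), led by citrate synthase CS (0.75, SE 0.14, adjusted p = 0.000761) and MDH2 (0.92, SE 0.20, adjusted p = 0.00323). These calls include the heart-rich libraries. The summed level of the list was 2815 and 1648 CPM in the heart-rich epicardial libraries of sheep 98 and 131. It was 1514 and 1365 CPM in those of sheep 132 and 201, against 1564 to 1757 CPM in control perirenal fat. Of 73 mitochondrial ribosomal proteins, 14 were lower and 2 higher in subcutaneous fat (21.9%) and 11 were higher in perirenal fat (15.1%). Counted over both directions, the subcutaneous shares of the assembly factors and of the mitochondrial ribosomal proteins were thus near that of all genes. By direction the mitochondrial ribosomal proteins were uneven, with 14 lower and 2 higher. Of the 3075 calls over all genes in subcutaneous fat, 1551 were lower.

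The regulators of mitochondrial biogenesis gave 2 lower and 2 higher of 19 in subcutaneous fat. The coactivators PPARGC1A (2.70, SE 0.45, adjusted p = 0.00087) and PPARGC1B (1.29, SE 0.21, adjusted p = 0.000297) were higher in epicardial fat. Heart muscle transcripts were present there, and their part was not tested. The 2 coactivators do not stand for the whole list. Its summed level in control sheep had a mean of 1236 CPM in epicardial and 1211 CPM in visceral fat. The mean was 1342 CPM in perirenal and 1496 CPM in subcutaneous fat. UCP1 had no count in most libraries, and its highest level was 8.18 CPM in the epicardial library of testosterone sheep 233. Of the brown adipocyte markers 4 could be tested: EBF2 (1.53, SE 0.11, adjusted p = 4.01e-08), DIO2 (2.48, SE 0.33, adjusted p = 3.60e-05) and PPARGC1A were higher in epicardial fat and CIDEA was lower (-1.01, SE 0.21, adjusted p = 0.00279).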

How the data were processed

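Gene counts of 32 libraries (4 depots of 8 sheep, QuantSeq 3′ messenger RNA kit) were used as the authors deposited them, as whole-number raw counts of reads per gene. The submitters' processing notes name the STAR aligner, the counter featureCounts (1.6.1), Trimmomatic (0.36) for trimming, FastQC (0.11.5) and MultiQC (0.9), and DESeq2 (1.24.0) in R (3.6.3). For the genome build, annotation, strand setting and treatment of reads with several matches, the sources used here give nothing. Libraries held 784135 to 8267824 counts, which limits members of low level most.

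Members were found by symbol, and RefSeq's gene table (assembly ARS-UI_Ramb_v3.0) listed 59 of the 61; no coordinates were used. The members, the gene lists and the alternatives were chosen with earlier results of these data known, the fits with no epicardial library and the heart ratios after the values were seen. Genes were named by rule: NDUFS1, SDHA, COX5A, ATP5F1B, NDUFA4, NDUFA4L2 and ATP5IF1, up to 4 members a direction with the largest change among those passing in each depot of control sheep, 3 members of smallest p where none passed in a testosterone comparison, and up to 3 genes of smallest adjusted p in other lists. Further members in the accounts of levels, shares and ratios were picked after their values were seen.

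Computed here in R 4.3.3 with edgeR 4.0.16: genes were filtered with filterByExpr (minimum count 10), scaled by TMM, fitted with robust quasi-likelihood models and called at a Benjamini-Hochberg false discovery rate under 0.05, over all genes tested. Depots were compared within control sheep and within testosterone sheep, with sheep as a block because each animal gave all 4 depots. Testosterone was compared with control in each depot, in the sum of each animal's 4 libraries, and in a joint test of depot by treatment. The standard error (SE) was derived from the log2 fold change and the F statistic, as its size over the root of F. Alternatives were DESeq2 1.42.0, its size factors, no filter, leaving out each sheep and leaving out libraries that stood apart. The scripts were tested on simulated data. In 48 pairs of libraries of 1 group, 0 were identical, and chi-square per degree of freedom was at least 11.6. The values of 1 member are not reported here, though it is in all counts, sums and medians.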

Additional observations from a re-analysis of the deposited data

Results flagged for a closer look

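Within each group of 4 libraries, the highest or lowest value was compared with the rest by Dixon's criterion for a value that stands apart, for 24 genes and 6 sums in 8 groups. Of the 240 tests 33 passed, in 8 libraries. The criterion is set to pass about 1 in 20 by chance. Many of the 24 genes had been named for their results in these same libraries, so the 33 cannot be read against that rate. Values of members within a library are not independent.

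The epicardial library of testosterone sheep 48, which held the highest cardiac muscle sum, gave 19 of them, all as the highest of its group. Its sums were 25648 CPM over all members (others 7305 to 10192), 9751 CPM for complex I, 949 CPM for complex II, 1500.4 CPM for complex IV and 12613 CPM for complex V. Its single members were ATP5F1B at 756 CPM, ATP5F1D at 36.0 CPM, ATP5F1E at 1359 CPM, ATP5IF1 at 694 CPM, COX5A at 905 CPM, NDUFA1 at 430.3 CPM, NDUFA12 at 648 CPM, NDUFB1 at 1074 CPM, NDUFB10 at 217 CPM, NDUFB2 at 259.9 CPM, NDUFB5 at 355 CPM, NDUFC1 at 721 CPM, NDUFS1 at 215 CPM and NDUFS8 at 167 CPM. The epicardial library of control sheep 98 stood apart for NDUFS1 alone, at 163 CPM against 52.7 to 66.5 CPM.

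The perirenal library of testosterone sheep 233, whose cardiac muscle sum was 69.6 CPM, was the highest of its group for complex IV (617 CPM), COX5A (391 CPM), NDUFB6 (197 CPM), NDUFC1 (380.0 CPM), NDUFS1 (78.2 CPM) and SDHD (13.3 CPM, others 5.98 to 7.09). The ARGLU1-rich visceral library of testosterone sheep 255 was the lowest for NDUFA6 (55.2 CPM) and NDUFB5 (56.9 CPM). The visceral library of control sheep 98 was the lowest for SDHA (123 CPM). In subcutaneous fat, control sheep 131 was the lowest for NDUFA1 (126 CPM), control sheep 132 the highest for NDUFA12 (97.4 CPM) and SDHD (10.3 CPM), and testosterone sheep 233 the highest for ATP5MD (102 CPM).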

How the results depend on the processing

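The numbers of called members for the testosterone comparisons and the joint test were 0 under all alternatives run, including each left-out sheep (0 to 0). Among all genes, DESeq2 called 32, 29, 9 and 5 for testosterone in epicardial, visceral, perirenal and subcutaneous fat, 60 in counts summed over depots and 10 in the joint test, where edgeR called 0, 0, 0, 0, 1 and 1. In control sheep, without the heart-rich epicardial libraries the calls were 2 in visceral, 23 in perirenal and 2 in epicardial fat; with no epicardial library they were 0 in visceral and 19 in perirenal fat; without the perirenal library of sheep 98 they were 0 in visceral, 0 in perirenal and 10 in epicardial fat. Leaving out 1 control sheep gave 4 to 20 calls in subcutaneous, 3 to 29 in epicardial, 1 to 3 in perirenal and 0 to 1 in visceral fat, and leaving out 1 testosterone sheep gave 0 to 1 in epicardial fat and 0 to 0 in the other depots. In testosterone sheep DESeq2 called 1 member in visceral, 1 in subcutaneous and 4 in epicardial fat, and edgeR without the heart-rich libraries called 0 in epicardial fat. The causes of these differences were not tested.

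Pairing the depots of an animal mattered for some counts. With no replicate block the calls in control sheep were 19 in subcutaneous, 17 in epicardial, 2 in perirenal and 0 in visceral fat, in testosterone sheep 0, 0, 0 and 1, and 0 in the joint test. For named members 405 values were recomputed, log2 fold changes and, in the joint test, F statistics. Of these, 340 stayed on the same side of the threshold and, for fold changes, kept their direction. The 340 include values of members named without passing in the testosterone comparisons and the joint test, which had no call to lose. They are therefore no measure of how often a call held. A further 62, all of members that had passed, kept the direction and lost the call, and 3 changed sign. Those were NDUFA12 in control epicardial fat without the heart-rich libraries (-0.12), and NDUFA6 and NDUFA13 for testosterone in epicardial fat, which spanned -0.057 to 0.61 and -0.16 to 0.63 over the left-out sheep, both lowest without sheep 48. The testosterone comparison in epicardial fat had the widest errors, a median SE of 0.43 against 0.22 to 0.28 in the other depots.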
